A study of Homo sapiens with 4 samples.

Results

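NUMB, MAP1B, CTNNB1, ADD3, FOXO1 and MACF1 are 6 mRNAs of cell signalling and the cytoskeleton that earlier work reported as bound or processed by the RNA-binding protein QKI. They were picked by symbol from the 26830 gene rows of a RIP-seq table, and all 6 symbols were present. RIP-seq sequences the RNA that comes down with a precipitated protein. The cells were U2OS, a human osteosarcoma line, infected with a lentivirus for 3 x Flag-QKI7 and sorted for GFP, so both groups carry the tagged protein. The groups were RNA pulled down by an antibody to the tag (Flag-RIP, 2 libraries) and RNA of the sonicated lysate without antibody (input, 2 libraries). Before lysis the cells were cross-linked with ultraviolet light, and they had no other treatment. The labels call the RNA ribosome-depleted and name a stranded library kit. Whether replicates 1 and 2 were separate cultures is not said, so a p-value here speaks only of these libraries, whose spread may be technical. Neither a mock pull-down nor untagged cells were analysed here, so binding to beads or antibody is not measured.

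QKI is a STAR-domain protein that binds single-stranded RNA at a short recognition element with a nearby accessory site. Its isoforms share the RNA-binding domain and differ in the C-terminal tail, which sets whether the protein is mainly nuclear or cytoplasmic. It is known for control of splicing, circular RNA formation, stability and translation, above all in myelinating glia and in muscle. The 6 proteins act in linked pathways. NUMB is an endocytic adaptor that restrains Notch receptors, and CTNNB1 encodes beta-catenin, the transcriptional effector of Wnt signalling and a linker of cadherins. FOXO1 is a transcription factor that AKT kinases keep out of the nucleus. MAP1B stabilises microtubules, ADD3 (gamma-adducin) caps actin filaments at the spectrin membrane skeleton, and MACF1 is a spectraplakin that bridges actin and microtubules.

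In RefSeq on GRCh38.p14, NUMB lies on the minus strand of chromosome 14 from 73275216 to 73458546, and FOXO1 on the minus strand of chromosome 13 from 40555667 to 40666641. On the plus strands, MAP1B lies on chromosome 5 from 72107475 to 72209565 and CTNNB1 on chromosome 3 from 41199505 to 41240443. ADD3 lies on chromosome 10 from 109996373 to 110135565, and MACF1 on chromosome 1 from 39084167 to 39487138. RefSeq lists 5 transcripts for NUMB, 14 for CTNNB1 and 31 for ADD3. The deposited values are per gene, so exons, introns and isoforms, including the alternative exons for which several of these genes are known, cannot be told apart.

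Values are TPM, a length-normalised share of each library, and carry no read depth. The abundant 7SL RNA rows RN7SL1 and RN7SL2 took 39.8% and 43.4% of the Flag-RIP libraries and 84.6% and 79.7% of the inputs. ERCC spike-ins, synthetic RNAs, took 18.9% and 25.6% of Flag-RIP and 2.78% and 3.89% of input. TPM is a share, so the rest of a library moves with such rows, and their part in the changes below was not tested. Of all tested genes, 98.5% had a higher mean TPM in Flag-RIP, with a median ratio of 3.32 over the 10415 genes tested, those averaging 1 TPM or more across the libraries. Changes are given as deposited, and relative to the median gene after each library was divided by its median ratio to the genes' geometric means. QKI itself had 60.7 and 42.0 TPM in Flag-RIP, against 3.83 and 5.85 TPM in input, with reads of transgene and endogenous gene not told apart. Of 9 markers of the osteosarcoma line, 6 averaged at least 1 TPM, with VIM, SPARC and COL1A1 the highest, while TWIST1 was listed at 0 and COL1A2 and ALPL were under 1 TPM in every library. The 7 blood markers summed to at most 0.55 TPM, the 8 neural and glial markers to 7.95 and 5.41 TPM in Flag-RIP and 0.93 and 1.70 in input, and the 8 epithelial markers to 99.5 and 109 TPM in Flag-RIP and 72.6 and 84.8 TPM in input, nearly all KRT8 and KRT18. The part of these cells in the results was not tested.

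All 6 mRNAs were more abundant in both Flag-RIP libraries than in both inputs, by 2.73-fold to 4.78-fold in mean TPM. The same separation held for 96.7% of all tested genes, so it sets none of them apart. MACF1 had 36.2 and 31.9 TPM in Flag-RIP, against 5.74 and 9.05 TPM in input. CTNNB1 had 32.0 and 27.4 TPM in Flag-RIP and 8.64 and 11.2 TPM in input. MAP1B had 24.2 and 22.6 TPM in Flag-RIP and 5.48 and 8.39 TPM in input. These are the 3 abundant members, and the cytoskeletal linker MACF1 stood at the top in Flag-RIP but not in input. NUMB had 11.2 and 10.7 TPM in Flag-RIP, against 1.81 and 3.08 TPM in input. ADD3 had 7.14 and 6.11 TPM in Flag-RIP and 2.01 and 2.85 TPM in input. FOXO1 was the lowest, with 1.62 and 1.25 TPM in Flag-RIP and 0.24 and 0.36 TPM in input. Its mean of 0.87 TPM lies under the filter, which left 5 of the 6 mRNAs tested.

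**Figure D1:**
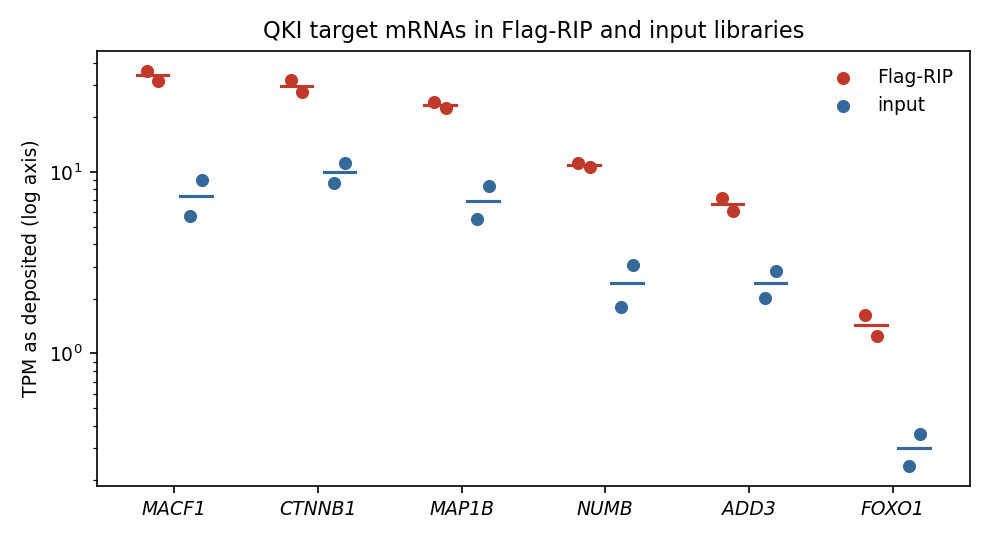
TPM as deposited (log axis) of the 6 mRNAs in each library, Flag-RIP in red and input in blue, with bars at the means of 2 libraries. Both red points lie above both blue points for every mRNA, and input replicate 2 is the higher input throughout.

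The order of the levels was MACF1, CTNNB1, MAP1B, NUMB, ADD3 and FOXO1 in both Flag-RIP libraries. Of these neighbours, the ranges of MACF1 and CTNNB1 overlapped in Flag-RIP, and the others did not. In both inputs CTNNB1 came first, ahead of MACF1 and then MAP1B. There the ranges of CTNNB1 and MACF1, of MACF1 and MAP1B, and of NUMB and ADD3 overlapped. NUMB and ADD3 thus had like levels in input, at 2.45 ± 0.90 and 2.43 ± 0.59 TPM (SD, n = 2), and stood apart in Flag-RIP, at 10.96 ± 0.40 and 6.63 ± 0.73 TPM.

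As deposited, the 5 tested mRNAs were all called higher in Flag-RIP, as were 92.3% of tested genes, against 0.317% called lower. MACF1 had a log2 change of 2.09 (SE 0.33) and NUMB of 1.82 (SE 0.31). MAP1B followed at 1.64 (SE 0.33), CTNNB1 at 1.495 (SE 0.33) and ADD3 at 1.16 (SE 0.30). The largest adjusted p among them was 2.0e-04, for ADD3 (limma, Benjamini-Hochberg over all genes tested). That call was lost without Flag-RIP replicate 1 (1.06, limma adjusted p = 0.14) and without Flag-RIP replicate 2 (1.26, limma adjusted p = 0.082). These changes are on the log2(TPM + 1) scale, which understates the change of low genes. FOXO1 had 0.90 on that scale although its ratio of mean TPM, 4.78, was the highest of the 6.

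Relative to the median gene, NUMB and MACF1 were higher in Flag-RIP, and MAP1B, CTNNB1 and ADD3 did not pass the test. Over all tested genes limma called 21.5% higher and 23.7% lower on this scale, 45.2% in all, beside 2 higher and 0 lower of the 5 mRNAs (also 2 and 0 at an unadjusted p under 0.05). A count of 2 of 5 is close to that background. NUMB had scaled values of 5.92 and 6.02 in Flag-RIP, against 4.16 and 4.51 in input, with a log2 change of 0.39 (SE 0.09, limma adjusted p = 0.024). MACF1 had 19.1 and 18.0 in Flag-RIP, against 13.2 and 13.3 in input, with a log2 change of 0.46 (SE 0.12, limma adjusted p = 0.028). In both genes the groups did not overlap and the difference was several times the spread within a group. Such separation upward on the scaled values was seen in 40.1% of tested genes, and downward in 39.6%. NUMB stood above 79.2% of tested genes in this change and MACF1 above 83.0%.

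Neither call survived the omission of a library, whichever of the 4 it was, with log2 changes of 0.33 to 0.42 for NUMB (limma adjusted p of 0.058 to 0.19) and 0.43 to 0.51 for MACF1 (limma adjusted p of 0.054 to 0.14). With no filter, neither passed (0.24 for NUMB and 0.29 for MACF1, limma adjusted p = 0.089 and 0.11), and limma called 0 of all genes in either direction (3836 higher and 4145 lower at an unadjusted p under 0.05). Scaled to the spike-ins, neither was higher, at -0.44 for NUMB and -0.47 for MACF1 (limma adjusted p = 0.15 and 0.20), with the median tested gene at -0.68.

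MAP1B, the microtubule stabiliser, had scaled values of 12.8 and 12.7 in Flag-RIP and 12.6 and 12.3 in input, a log2 change of 0.03 with a 95% interval of -0.24 to 0.31. CTNNB1 had 16.8 and 15.5 in Flag-RIP and 19.9 and 16.4 in input, a log2 change of -0.15 with an interval of -0.52 to 0.21. Its groups overlapped, and those of MAP1B lay side by side with almost no gap. ADD3 had 3.76 and 3.45 in Flag-RIP, against 4.62 and 4.18 in input. Both Flag-RIP values lay below both inputs, with a log2 change of -0.23, an interval of -0.47 to 0.01 and a limma adjusted p of 0.10. The adjusted p-values of MAP1B and CTNNB1 were 0.82 and 0.41 (limma). For FOXO1 the scaled values were 0.85 and 0.71 in Flag-RIP and 0.55 and 0.53 in input. With no filter FOXO1 could be tested, and its relative change of 0.14 did not pass (limma adjusted p = 0.36).

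**Figure D2:**
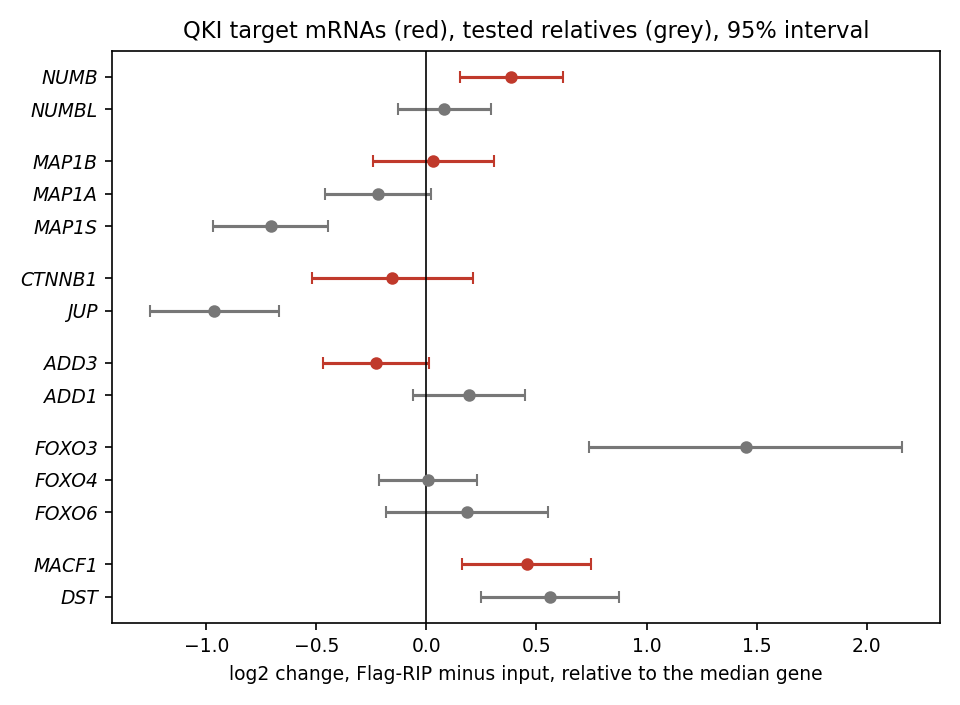
Log2 change of Flag-RIP minus input relative to the median gene (x axis), with 95% intervals from limma, for the 5 tested mRNAs in red and their tested relatives in grey. The intervals of NUMB, MACF1, FOXO3 and DST lie above 0, those of MAP1S and JUP lie below 0, and the others include 0.

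NUMB and MACF1 lay above the median tested gene, and ADD3 below it, under each of 6 scalings. These were median ratios, none, common log2 medians, quantiles, the 20 most abundant rows left out, and spike-ins. The change minus the median change was 0.24 to 0.62 for NUMB and 0.21 to 0.88 for MACF1. For ADD3 it was -0.33 to -0.04. MAP1B was below the median only with spike-ins (-0.20). CTNNB1 was above it with none, common log2 medians and quantiles, and below it with the others. No scaling and common log2 medians gave the same values for every mRNA, because the median is taken off again, so they are the same result. A factor shared by a library cancels only in part in this measure, which ran from -0.20 to 0.44 for MAP1B and from -0.41 to 0.29 for CTNNB1. All scalings use the same 4 libraries, so their agreement is not independent support.

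Ratios between the mRNAs within a library need no scaling, because a factor shared by all rows cancels. For description, the 6 mRNAs are split by these ratios into an upper trio of NUMB, MACF1 and FOXO1 and a lower trio of MAP1B, CTNNB1 and ADD3. The place of FOXO1 rests on low input values of 0.24 and 0.36 TPM. The NUMB to ADD3 ratio of TPM was 1.57 and 1.75 in Flag-RIP, against 0.90 and 1.08 in input. MACF1 over CTNNB1 was 1.13 and 1.16 in Flag-RIP, against 0.66 and 0.81 in input. FOXO1 over MAP1B was 0.067 and 0.055 in Flag-RIP, against 0.044 and 0.043 in input. All 9 ratios of an upper to a lower mRNA were higher in both Flag-RIP libraries than in both inputs, by 1.35-fold to 1.75-fold. The 3 ratios within the upper trio overlapped between the groups, such as MACF1 over NUMB with 3.22 and 2.99 in Flag-RIP and 3.17 and 2.94 in input. Within the lower trio the groups did not overlap, but the ratios moved by only 1.09-fold to 1.25-fold. In all, 12 of the 15 ratios did not overlap, and 9 of the 10 among tested mRNAs, beside 79.0% of all pairs of tested genes. Such separation was thus common among all genes and does not set these mRNAs apart. The trios were read from these values, so no test is given.

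**Figure D3:**
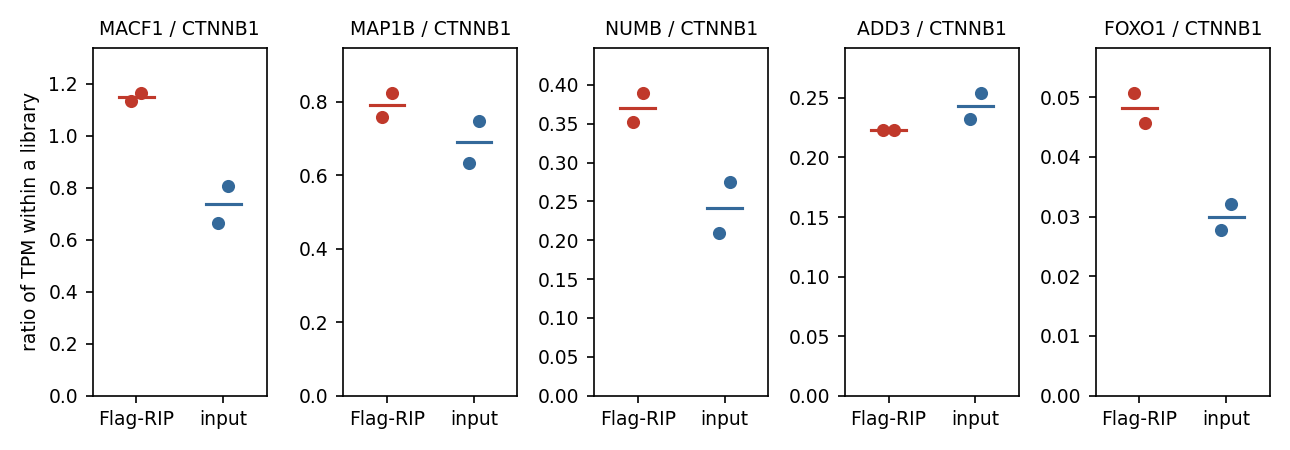
TPM of 5 mRNAs divided by that of CTNNB1 in the same library (y axes start at 0), with bars at the means of 2 libraries. MACF1, NUMB and FOXO1 stand clearly higher over CTNNB1 in Flag-RIP than in input, MAP1B slightly higher, and ADD3 slightly lower.

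The MACF1 locus has a further row in the table. RefSeq lists KIAA0754 as a synonym of MACF1, whereas the deposited table holds it as a separate gene, named here after its values were seen. KIAA0754 had 18.6 and 15.8 TPM in Flag-RIP, against 1.99 and 2.94 TPM in input, a ratio of mean TPM of 6.98 beside 4.60 for the MACF1 row. Relative to the median gene it had a log2 change of 0.93 (SE 0.10, limma adjusted p = 0.0086), and it was called in all 4 runs that left out 1 library. How the counting divided reads between these rows is not stated, so both values are uncertain. At the ADD3 locus the antisense RNA ADD3-AS1 was low, with 0.28 and 0.50 TPM in Flag-RIP and 0.07 and 0.14 TPM in input, and whether counting used strand is not stated.

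Relatives of the 6 genes did not follow a common pattern. FOXO3, a FOXO1 paralog with overlapping targets, had 24.1 and 11.7 TPM in Flag-RIP, against 1.29 and 1.72 TPM in input. Its relative log2 change was 1.45 (SE 0.28, limma adjusted p = 0.015), with Flag-RIP replicate 1 well above replicate 2. FOXO4 and FOXO6 had 0.01 and 0.19 and did not pass. DST, the other spectraplakin, was also called higher, by 0.56 (SE 0.12, limma adjusted p = 0.020), with 34.0 and 32.3 TPM in Flag-RIP and 4.87 and 8.69 TPM in input. That call was lost without input replicate 1 (0.45), Flag-RIP replicate 1 (0.59) or Flag-RIP replicate 2 (0.56). With spike-in scaling DST turned to -0.37, beside a median tested gene at -0.68.

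NUMBL, the NUMB paralog, had 0.08 and did not pass. MAP1S, a short relative of MAP1B, fell by 0.71 relative to the median gene (SE 0.10, limma adjusted p = 0.010). Its TPM was higher in Flag-RIP, at 8.52 and 9.01 against 3.73 and 5.67 in input. The relative call was lost without Flag-RIP replicate 1 (-0.59), while MAP1A had -0.22 and did not pass. JUP (gamma-catenin), the closest relative of beta-catenin, fell by 0.96 relative to the median gene (SE 0.12, limma adjusted p = 0.0095), with 3.37 and 3.54 TPM in Flag-RIP and 2.23 and 2.84 TPM in input. ADD1 had 0.19 and did not pass, and ADD2 was under the filter with at most 0.28 TPM. Differences between the paralogs themselves were not tested.

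The other genes of these pathways were taken from 6 lists, without the 6 mRNAs. Of 115 listed genes tested, 22 (19.1%) were called higher and 12 (10.4%) lower relative to the median gene, with a median log2 change of 0.05. Over all tested genes 21.5% were called higher and 23.7% lower, with a median of 0.01. Among 30 Wnt genes, 8 (26.7%) rose and 2 (6.67%) fell, with a median of 0.15. DVL3, a cytoplasmic transducer of Frizzled receptors, had the largest change of all listed genes, with 112 and 58.7 TPM in Flag-RIP against 3.62 and 6.59 TPM in input (log2 change 2.18, SE 0.28, limma adjusted p = 0.0096). CSNK1E, a casein kinase of the pathway, rose by 0.94 (limma adjusted p = 0.022), and lost the call without Flag-RIP replicate 1 (0.68) or input replicate 1 (0.88). With spike-in scaling CSNK1E was at -0.0090, beside a median tested gene at -0.68. Among 23 Notch genes 5 (21.7%) rose and 6 (26.1%) fell, with a median of -0.08. The coactivator MAML2 rose by 1.30 (limma adjusted p = 0.0086), with 8.10 and 5.61 TPM in Flag-RIP against 0.38 and 0.64 TPM in input. Its inputs lay under 1 TPM, so it passed the filter only through its Flag-RIP values. PSENEN, a gamma-secretase subunit, fell by 1.18 relative to the median gene (limma adjusted p = 0.011), a call lost without Flag-RIP replicate 1 (-1.05). Its TPM was higher in Flag-RIP, at 4.04 and 4.23 against 3.45 and 3.46 in input.

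Of 21 tested FOXO and PI3K-AKT genes, 3 (14.3%) rose and 0 fell, with a median of 0.16. At an unadjusted limma p under 0.05, 8 (38.1%) were higher and 0 lower, beside 27.0% higher and 28.3% lower over all tested genes. By that measure 11 Wnt genes (36.7%) were higher and 2 (6.67%) lower, and 5 Notch genes (21.7%) higher and 7 (30.4%) lower. Of the microtubule and spectraplakin genes 5 (27.8%) were higher and 3 (16.7%) lower, and of the adhesion genes 2 (22.2%) and 4 (44.4%). The 3 called genes of the FOXO and PI3K-AKT list were FOXO3, TSC1 (named after its values were seen) and PDPK1. The AKT-activating kinase PDPK1 rose by 0.65 (limma adjusted p = 0.0098), and lost the call without input replicate 1 (0.60). With spike-in scaling PDPK1 turned to -0.14, beside a median tested gene at -0.68. Of 18 microtubule and spectraplakin genes 3 rose and 2 fell, led by MAP1LC3B, an autophagosome marker protein, at 1.00 (limma adjusted p = 0.014). Of 14 adducin and spectrin genes, EPB41L2, a band 4.1 protein, was called higher at 0.39 (limma adjusted p = 0.038) and 0 fell (3 higher and 0 lower at an unadjusted limma p under 0.05). That is 7.14% called higher, below the share over all tested genes. The EPB41L2 call did not hold in any of the 4 runs without 1 library. With spike-in scaling EPB41L2 was at -0.50, beside a median tested gene at -0.68. PLEC, the most abundant of that list, had 0.43 and did not pass. Of 9 adhesion genes 2 rose and 2 fell. CDH2, N-cadherin, fell by 0.54 relative to the median gene (limma adjusted p = 0.013), a call lost without Flag-RIP replicate 1 (-0.53) or input replicate 1 (-0.54). Its TPM was higher in Flag-RIP, at 9.68 and 8.65 against 3.49 and 5.09 in input.

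**Figure D4:**
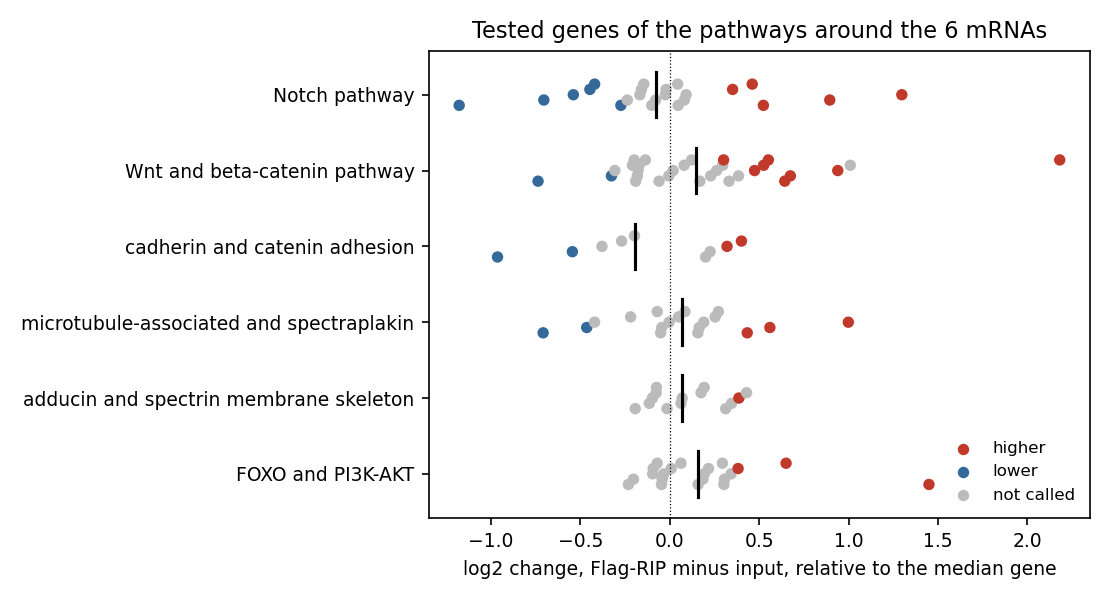
Log2 change of Flag-RIP minus input relative to the median gene (x axis) for the tested genes of each pathway list (rows), coloured by the limma call, with a black bar at the median of the list. All list medians lie between -0.20 and 0.16, and DVL3 at 2.18, FOXO3 at 1.45 and MAML2 at 1.30 lie farthest to the right.

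The change relative to the median gene moved with the genomic span of a gene, a measure looked at after the values had been seen. Across 9474 tested protein-coding genes with a span, Spearman's rho was 0.33, a description over genes that share 4 libraries. The median change was -0.36 in the shortest of 5 equal classes (0.3 to 9.4 kb) and 0.15 in the longest (89.6 to 1506.5 kb), where 27.1% of genes were called higher and 7.49% lower. NUMB (183.3 kb), MACF1 (403.0 kb), MAP1B (102.1 kb) and ADD3 (139.2 kb) belong to the longest class. Among genes of that class MACF1 stood above 83.2%, NUMB above 77.9%, MAP1B above 35.7% and ADD3 above 12.8%. CTNNB1 (40.9 kb) stood above 37.9% of the middle class (21 to 41.1 kb). The part of gene length in these changes was not tested.

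**Figure D5:**
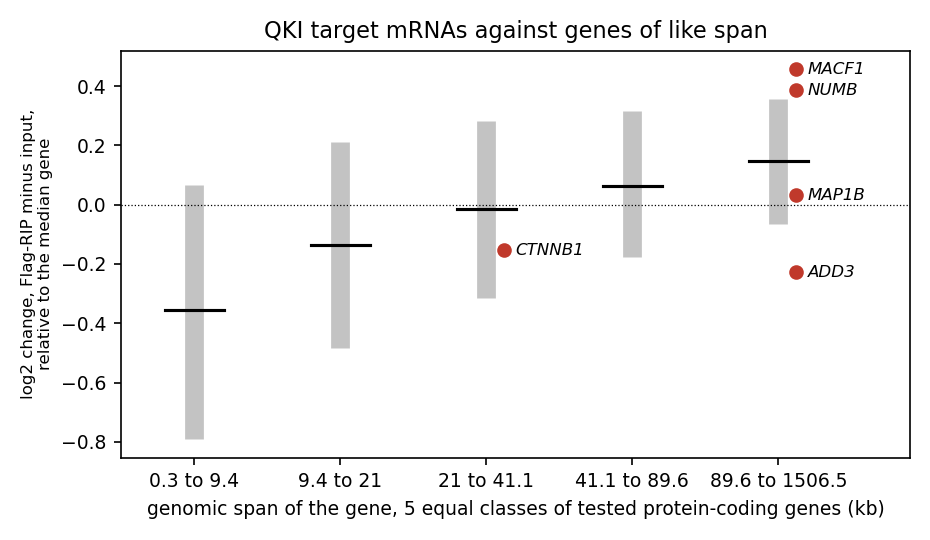
Log2 change of Flag-RIP minus input relative to the median gene (y axis) by class of genomic span in kb (x axis), with the interquartile range of all tested protein-coding genes as grey bars, their median as black lines, and the 5 tested mRNAs as red points. MACF1 and NUMB lie above the interquartile range of the longest class, and ADD3 lies below it.

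The tested genes nearest to each mRNA over the 4 libraries were found by Euclidean distance in log2 of the scaled values plus 1. NUMB lay closest to MAP3K12 (0.07) and GAK (0.08), MACF1 to YTHDF1 (0.11) and TPM4 (0.16), and MAP1B to TRIP10 (0.09) and DNM1 (0.12). CTNNB1 lay closest to COL6A3 (0.11) and AARS (0.13), and ADD3 to RNASEH1 (0.04) and METTL13 (0.05). With 4 libraries such closeness says only that level and change are alike.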

How the data were processed

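The authors deposited their TPM values as 1 table of 4 libraries. The tools were STAR and RSEM (version 1.2.31) on GRCh38, per the submitters' processing notes. The gene annotation, any filter and the strand option are not stated there. Columns sum to 1000000 over 26830 genes and 92 spike-in rows. TPM keeps no depth, so no counting interval is given. The 10415 genes that averaged 1 TPM or more were tested in limma (version 3.58.1, R version 4.3.3) (eBayes with a trend, two-sided, Benjamini-Hochberg, threshold 0.05) on log2(TPM + 1), as deposited and after median-ratio scaling before the log. Residual degrees of freedom were 2, with a prior of 3.23 after scaling and an infinite prior as deposited. The procedure was tested on simulated data. Alternatives changed the pseudocount, filter, scaling, variance model and replicate block, or left out 1 library. Same-numbered libraries did not deviate together (r = -0.098 across genes), so no replicate block was used. The members, lists and rules were chosen with earlier results of these data known. Pathway genes named were the 2 with the largest called change per list, or the highest mean TPM, and direct relatives of the members. Counts of the QKI recognition element in the mRNAs, and mRNA lengths, were planned and not analysed here. Genomic spans were used instead, from RefSeq (GRCh38.p14), which matched 23987 symbols directly and 1395 as synonyms.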

Additional observations from a re-analysis of the deposited data

How the results depend on the processing

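The filter, the scaling and the omission of a library each changed calls. With no filter, limma called 0 genes higher and 0 lower relative to the median gene (3836 and 4145 at an unadjusted p under 0.05), likewise 0 and 0 of the pathway genes (18 and 42 unadjusted). NUMB (0.24, limma adjusted p = 0.089) and MACF1 (0.29, limma adjusted p = 0.11) then did not pass. With the replicate number as a block, NUMB (0.39, limma adjusted p = 0.056) and MACF1 (0.46, limma adjusted p = 0.082) did not pass. In that fit 13 pathway genes were higher and 8 lower, beside 1833 higher and 1769 lower of all tested genes. The cause was not tested. Scaled to the spike-ins, 325 genes were higher and 6339 lower, with 3 and 70 pathway genes. Then the median tested gene was at -0.68. NUMB had -0.44, MACF1 -0.47, MAP1B -0.88, CTNNB1 -1.09 and ADD3 -1.01, the last 3 called lower. CTNNB1 and ADD3 were already negative relative to the median gene, while NUMB, MACF1 and MAP1B turned from positive to negative. Other named genes also turned negative. Of these, FOXO4 (-0.51), DST (-0.37), CSNK1E (-0.0090) and EPB41L2 (-0.50) stayed above that median. So did PDPK1 (-0.14), MAP3K12 (-0.41), GAK (-0.48) and TPM4 (-0.47). NUMBL (-0.71), ADD1 (-0.70), FOXO6 (-0.71), TRIP10 (-0.90) and DNM1 (-0.84) lay below it. With the 20 most abundant rows left out, 4449 genes were higher and 680 lower, with 55 and 2 pathway genes. The median tested gene was then at 0.51. MAP1B passed at 0.55, only 0.04 above that median. With a mean TPM of at least 5, 1157 genes were higher and 1098 lower, and 4 pathway genes lower. With at least 1 in each group, 34 pathway genes were higher and 6 lower, beside 1696 higher and 1653 lower of all tested genes. Leaving out 1 library gave 734 to 2060 genes higher and 267 to 1973 lower, with 4 to 22 and 2 to 8 pathway genes, NUMB at 0.33 to 0.42 and MACF1 at 0.43 to 0.51, neither passing in any run. As deposited, 9608 genes were higher and 33 lower, against 73 lower with no filter, 3476 higher at a mean TPM of at least 5 and 6244 higher at 1 in each group. Without 1 library the deposited counts were 4597 to 10321 higher and 19 to 35 lower. Median-ratio scaling turned these into 2240 and 2472, with CTNNB1 at -0.15 and ADD3 at -0.23. FOXO1, untested, had a relative change of 0.21. Its change ran from -0.41 at common log2 medians to 0.92 without the 20 most abundant rows. The median tested gene was at -0.11 and 0.51 in those settings, and FOXO1 had only 0.24 and 0.36 TPM in input. The pseudocount, variance trend and robust fit changed no call of the 5 tested mRNAs.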
